A study of Homo sapiens with 12 samples.

Results

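The genes described here are 34 genes of cholesterol and fatty acid synthesis, taken by their symbols among the 60708 genes of the count tables. Earlier results of these data were known when they were chosen. They are 5 regulators of sterol sensing, 18 genes of the sterol pathway, 1 sterol carrier, 7 genes of fatty acid synthesis, and 3 genes that export sterol or limit its uptake. The RNA came from HCT116, a human colorectal carcinoma cell line, labelled wild type in all groups. Cells were treated for 24 h with oligomycin A (OA), which blocks ATP synthase in mitochondria, or with tunicamycin (TN), which blocks N-linked glycosylation and causes ER stress. Each stressor had 3 replicates and its own 3 replicates treated with the solvent DMSO, so that 12 libraries were compared. The labels give 5 µg/mL for both stressors, whereas the study's methods give a higher dose for OA and the same dose for TN. All groups were kept in the same medium with fetal bovine serum, a source of sterol and fatty acids. The question was how the sterol genes, classical targets of SREBP2, and the fatty acid genes, classical targets of SREBP1, compared between each stressor and its DMSO control.

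SREBP1 and SREBP2, encoded by SREBF1 and SREBF2, are made as precursors in the ER membrane. When ER cholesterol is low, SCAP escorts them to the Golgi, where proteases release the part that enters the nucleus and drives transcription of sterol and fatty acid genes. When sterol is plentiful, INSIG1 and INSIG2 hold SCAP in the ER, and oxysterols activate LXR, which raises ABCA1, ABCG1, and MYLIP. INSIG1 is itself an SREBP target, so its transcript follows SREBP activity. SREBPs bind sterol regulatory elements together with NF-Y, a factor that binds CCAAT boxes.

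The promoters of the members were compared first, because the sterol genes varied together in these libraries. RefSeq promoter windows of GRCh38.p14, from 250 bases before to 50 bases after a start site, were matched for 29 of the 34 members, some with several starts. The letters CCAAT, on either strand, were present in 15 of 20 windows of the sterol synthesis genes (75.0%), in 5 of 9 windows of the fatty acid synthesis genes (55.6%), in 2 of 6 windows of the regulators (33.3%), and in 34.6% of all 35116 windows. The letters TCACNCCAC, a strict form of the sterol regulatory element, were found on either strand in 1 of 38 member windows, that of SREBF2, and in 1.13% of all windows. The letters TGATGNAA, a strict form of the element bound by ATF4, were found in 0 of 38 member windows and in 3.62% of all. These motifs do not share letters where they were found in SREBF2. The 250 bases before the start are shown for 6 members: SREBF2, for its sterol element, and INSIG1, MVK, FDPS, NSDHL, and STARD4, sterol genes whose values differed between libraries. Capitals mark the letters of either motif on either strand, so that a reverse CCAAT reads ATTGG.
SREBF2: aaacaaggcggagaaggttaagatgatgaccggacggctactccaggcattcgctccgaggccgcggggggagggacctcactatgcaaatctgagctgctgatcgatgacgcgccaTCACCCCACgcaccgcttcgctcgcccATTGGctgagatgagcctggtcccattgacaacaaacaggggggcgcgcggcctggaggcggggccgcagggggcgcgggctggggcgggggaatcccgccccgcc
INSIG1: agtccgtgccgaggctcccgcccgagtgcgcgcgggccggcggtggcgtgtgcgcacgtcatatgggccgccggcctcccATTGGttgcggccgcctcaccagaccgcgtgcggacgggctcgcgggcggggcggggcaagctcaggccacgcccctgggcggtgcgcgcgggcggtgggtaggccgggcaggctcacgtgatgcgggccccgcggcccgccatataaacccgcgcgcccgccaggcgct
MVK: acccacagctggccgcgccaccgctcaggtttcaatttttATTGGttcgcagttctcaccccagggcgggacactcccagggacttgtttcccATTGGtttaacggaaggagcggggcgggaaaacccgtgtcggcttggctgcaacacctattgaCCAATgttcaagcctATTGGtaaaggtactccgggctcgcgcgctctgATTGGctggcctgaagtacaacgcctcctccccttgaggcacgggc
FDPS: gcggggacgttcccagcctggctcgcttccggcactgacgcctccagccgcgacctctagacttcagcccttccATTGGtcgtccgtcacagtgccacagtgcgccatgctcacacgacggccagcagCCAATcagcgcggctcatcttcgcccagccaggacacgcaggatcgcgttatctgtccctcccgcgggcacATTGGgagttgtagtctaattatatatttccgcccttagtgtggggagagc
NSDHL: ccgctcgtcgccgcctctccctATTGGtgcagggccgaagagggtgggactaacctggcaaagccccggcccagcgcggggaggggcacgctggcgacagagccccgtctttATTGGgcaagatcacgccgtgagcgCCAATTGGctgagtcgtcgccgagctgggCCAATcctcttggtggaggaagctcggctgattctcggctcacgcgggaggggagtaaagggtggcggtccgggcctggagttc
STARD4: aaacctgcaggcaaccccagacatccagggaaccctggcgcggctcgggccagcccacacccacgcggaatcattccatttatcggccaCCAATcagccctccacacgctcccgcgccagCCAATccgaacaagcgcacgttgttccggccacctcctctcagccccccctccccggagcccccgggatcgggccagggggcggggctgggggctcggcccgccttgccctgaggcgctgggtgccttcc
These windows lie at chr22:41832855-41833104, plus strand for SREBF2, where the sterol element starts at −133 and the reverse CCAAT at −106, and at chr7:155297628-155297877, plus strand for INSIG1, with 1 CCAAT at −170. The window of MVK, at chr12:109573544-109573793, plus strand, held 5 CCAAT boxes, the first at −210. FDPS, at chr1:155308616-155308865, plus strand, held 3, the first at −176. NSDHL, at chrX:152830813-152831062, plus strand, held 5, of which a forward and a reverse box overlap and read as one run of capitals. STARD4, at chr5:111512536-111512785, minus strand, held 2, the first at −161.

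The libraries held 9884124 to 24983573 counts, of which the 34 members took 0.185% to 0.45%. The RN7SL1 RNA alone took 6.02% to 8.11% of counts in the DMSO libraries and 8.4% to 17.9% in the treated ones, with the highest share in OA 2. The markers of colon epithelium that were looked at summed to 4160 to 8920 CPM (counts scaled to library size), with VIL1 at no more than trace level, while 7 markers of leukocytes, endothelium, and fibroblasts summed to 1.18 to 12.45 CPM, mostly COL1A1, with 4 to 6 of the 7 at 0 counts. In bulk RNA, fewer cells with a high level and less RNA in each cell cannot be told apart. The labels call the replicates biological and the study speaks in general of independent experiments, but neither says what libraries of the same number share, and p-values measure only the spread between these libraries. Some libraries stood apart in the members, and because this bears on every comparison, it is described before them.

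With DMSO alone, sterol genes differed more between replicate cultures than most genes did. INSIG1, the sterol sensor at chr7:155297776-155310235 in hg38, was at 20.5, 128, and 21.9 CPM in DMSO 1, 2, and 3 of the OA set, and at 156, 41.1, and 42.6 CPM in DMSO 1, 2, and 3 of the TN set. One library in each set was thus 3.81-fold to 6.23-fold above the lowest. FDFT1, the squalene synthase that commits the pathway to sterol, was at 94.5, 347, and 95.2 CPM in the DMSO libraries of OA and at 342, 125, and 121 CPM in those of TN. SCD, the desaturase that makes oleate, was at 224, 754, and 230 CPM in the former and at 832, 316, and 289 CPM in the latter. For each of these 3 genes, DMSO 2 of the OA set and DMSO 1 of the TN set were high and the other two of each set lay close to each other.

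The same library was the highest for most of the pathway. DMSO 2 of the OA set was the highest of its 3 libraries for 17 of 18 sterol synthesis genes (94.4%) and 5 of 7 fatty acid synthesis genes (71.4%), against 42% of all tested genes. DMSO 1 of the TN set was the highest for 16 of 18 (88.9%) and 6 of 7 (85.7%), against 42.9% of all. The median over genes of the SD between the 3 DMSO libraries, on the log2 CPM scale, was 0.689 (OA set) and 0.618 (TN set) for sterol synthesis, 0.418 and 0.378 for fatty acid synthesis, and 0.289 and 0.28 for all tested genes. Fatty acid oxidation genes, which burn what the members make, had a median SD of 0.125 and 0.107. Not every member took part in both sets. PMVK, the kinase after MVK, was at 11.5, 12.3, and 11.7 CPM in the DMSO libraries of OA, and ELOVL6, which elongates palmitate, was at 43.2, 39.1, and 36.9 CPM. In the TN set, DMSO 1 was the highest for both, with PMVK at 16.1, 11.9, and 9.18 CPM and ELOVL6 at 54.2, 47.4, and 49.6 CPM. ABCA1, the cholesterol exporter raised by LXR, went the other way, with 2.62, 0.947, and 1.57 CPM in the DMSO libraries of OA and 0.547, 2.56, and 3.03 CPM in those of TN, from 10 to 50 counts.

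**Figure D1:**
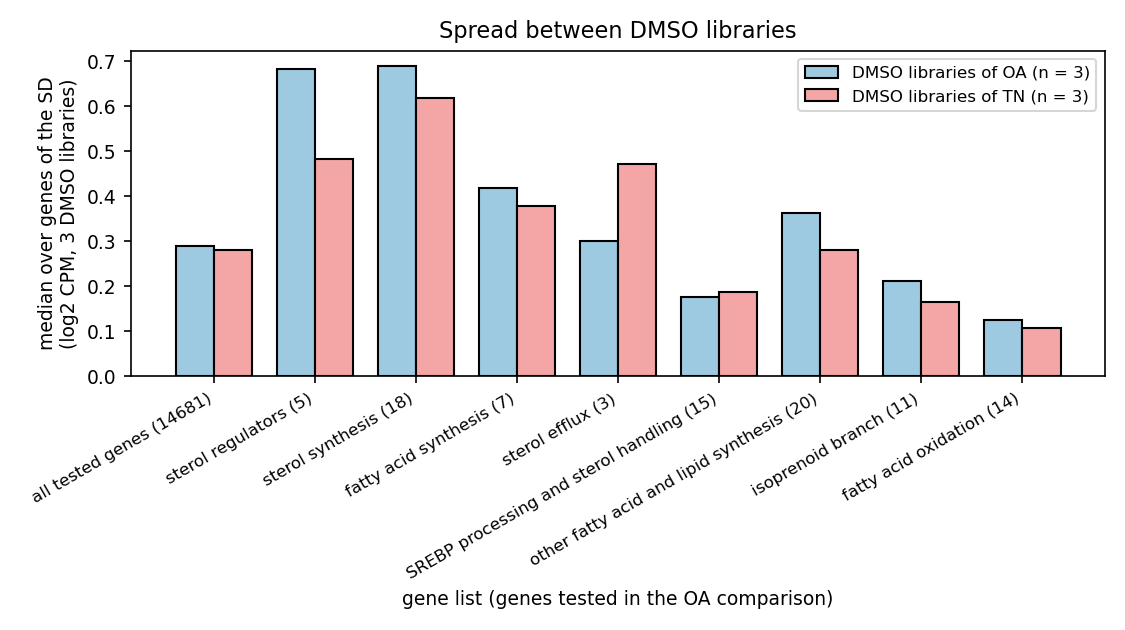
Bars give the median over the genes of a list of the SD of log2 CPM between the 3 DMSO libraries of a stressor (blue for OA, red for TN), with the number of genes tested beside each list name. Sterol synthesis stands at 0.689 and 0.618, above all tested genes at 0.289 and 0.28, and fatty acid oxidation lies lowest at 0.125 and 0.107.

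For INSIG1, FDFT1, and SCD, the treated library of the same number was again the highest of its group, while the order of the lower libraries was not always kept. INSIG1 was at 49.0, 160, and 43.7 CPM in OA 1, 2, and 3, and at 152, 27.5, and 24.6 CPM in TN 1, 2, and 3. FDFT1 was at 117, 569, and 156 CPM with OA and at 459, 97.2, and 113 CPM with TN. Replicate 2 was the highest in both the DMSO and the OA libraries for 13 of 18 sterol synthesis genes, and replicate 1 in both the DMSO and the TN libraries for 14 of 18. Set against the average of its 3 DMSO libraries, the median sterol synthesis gene stood at −0.40, 0.78, and −0.44 (log2) in DMSO 1, 2, and 3 and at −0.27, 1.17, and −0.41 in OA 1, 2, and 3. In the TN set it stood at 0.71, −0.38, and −0.37 in the DMSO libraries and at 0.76, −0.47, and −0.48 in the TN libraries. Number 2 of the OA set and number 1 of the TN set thus lay over 1 log2 unit above the other numbers, which were close to each other. The treated and DMSO libraries of a number lay within 0.41 of each other in their median gene-by-gene difference.

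**Figure D2:**
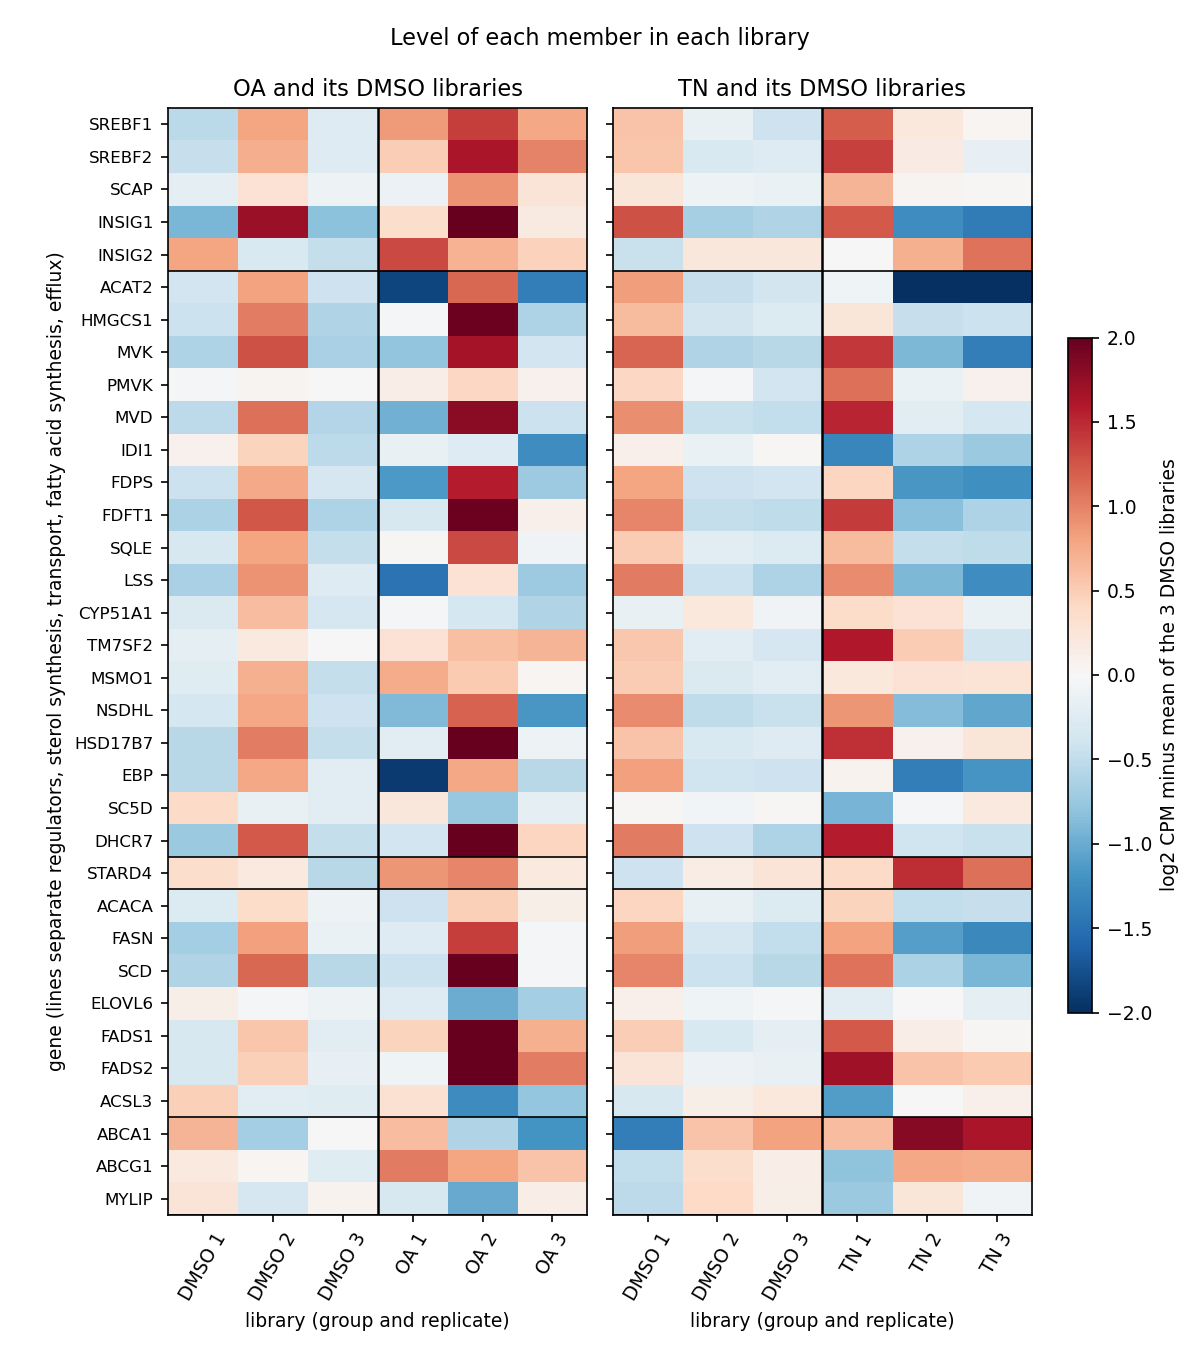
Colour gives log2 CPM minus the mean of the 3 DMSO libraries of the same stressor, for the 34 members (rows) in 12 libraries (columns), with colours ending at 2 units either way. DMSO 2 and OA 2 on the left, and DMSO 1 and TN 1 on the right, are red for most sterol and fatty acid genes, while ABCA1 is blue in DMSO 2 and DMSO 1 of those sets.

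The genes around them in the pathway gave the same picture. MVK, the mevalonate kinase whose promoter held 5 CCAAT boxes, was at 23.4, 87.2, and 23.0 CPM in the DMSO libraries of OA and at 20.8, 115, and 27.5 CPM with OA. In the TN set it was at 73.7, 21.6, and 22.4 CPM with DMSO and at 88.4, 17.7, and 12.5 CPM with TN. MVD, which decarboxylates the last mevalonate derivative, was at 62.4, 192, and 59.6 CPM with DMSO and at 45.8, 313, and 66.6 CPM with OA. For both genes number 2 of the OA set was over 2-fold above the others with and without OA. NSDHL, which removes methyl groups from the sterol ring and whose promoter also held 5 CCAAT boxes, was at 21.4, 46.9, and 20.6 CPM with DMSO and at 14.9, 62.4, and 12.1 CPM with OA. SQLE was at 136, 81.6, and 79.4 CPM with DMSO and at 149, 68.7, and 67.7 CPM with TN. For each of these 4 genes, number 2 of the OA set and number 1 of the TN set stood above the other two libraries both with DMSO and with the stressor.

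Not all members followed. Number 2 was the highest with DMSO and with OA for 22 of 34 members, and number 1 with DMSO and with TN for 23 of 34. SC5D, a sterol desaturase, was at 34.7, 33.1, and 34.9 CPM in the DMSO libraries of TN and at 18.0, 33.2, and 39.4 CPM with TN, so that TN 1 was low rather than high. ACSL3, which activates fatty acids for lipid droplets, was at 161, 99.3, and 97.6 CPM with DMSO and at 143, 48.7, and 67.7 CPM with OA, and at 149, 203, and 216 CPM with DMSO and 86.4, 186, and 201 CPM with TN. With the stressors its lowest values were in OA 2 and TN 1. MSMO1, a sterol methyl oxidase, was at 59.5, 116, and 51.0 CPM with DMSO but at 118, 101, and 72.8 CPM with OA. In the TN set it was at 153, 88.4, and 93.1 CPM with DMSO and at 125, 133, and 131 CPM with TN. The order of the DMSO libraries was thus not kept under either stressor. CYP51A1, the lanosterol demethylase, was low in all libraries, at 3.93 to 9.31 CPM, and showed no shared order. MYLIP, between 6.57 and 21.5 CPM, went the other way. Its lowest value in each group was in number 2 of the OA set (10.5 CPM with DMSO, 6.57 with OA) and number 1 of the TN set (11.3 with DMSO, 9.57 with TN). SCAP, between 41.5 and 108 CPM, did follow, with number 2 of the OA set and number 1 of the TN set the highest of each group. CCAAT boxes did not go with this order in every member. The windows of MSMO1 and MYLIP, which did not follow, held 4 and 2. Those of SCAP, SREBF1, and FADS1, all with that order, held 0.

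In the TN set, no label states that libraries of the same number are paired. They were taken as pairs because their deviations correlated above 0.1, though only number 1 was told apart. TN 2 correlated with a DMSO library of another number (0.436) about as well as with its own (0.409). A fit then held both treatment and replicate. Its replicate term is no independent test of the order above, because the pairing was chosen from the same shared deviations. The replicate term was called, at an adjusted p below 0.05 by edgeR's quasi-likelihood test, for 21 of 34 members (61.8%), against 16.6% of all 14432 genes tested. Among them were 13 of 18 sterol synthesis genes and 4 of 7 fatty acid synthesis genes. The test has no direction and does not count the members that share the order above. MYLIP, lowest in number 1 with DMSO and with TN, was also called. This test was added after the pattern had been seen. RN7SL1 and the epithelial markers moved with it: RN7SL1 took 8.11%, 17.9%, 7.502%, and 13.3% of counts in DMSO 2 and OA 2 and in DMSO 1 and TN 1 of the TN set, and the markers summed to 6180, 8920, 5730, and 8870 CPM, in each case the highest of the group. Their part in the result was not tested. The same libraries also differed in transcript base composition: across genes, the deviation of a library from its group mean rose with GC content in DMSO 2 and OA 2 (Spearman's rho 0.674 and 0.54) and in DMSO 1 and TN 1 (0.585 and 0.739), and it was between −0.739 and 0.0355 in the other libraries. The median GC content of the sterol synthesis genes, 48.3%, was near the median of all tested genes, 48.2% in the OA set and 48% in the TN set. Single genes of the list ran from 36.9% (SC5D) to 64.2% (TM7SF2). Of members that did not follow the order, SC5D, ACSL3, MSMO1, and MYLIP had 36.9%, 37.1%, 37.4%, and 46.8%. Of those that did, HMGCS1, SCAP, and SREBF1 had 38.95%, 61.7%, and 63.2%. The part of GC content in this order was not tested. With a smooth curve on GC content taken out of each library, the replicate term was called for 23 of 34 members (67.6%), against 10.5% of all genes. These included MSMO1, SC5D, STARD4, and MYLIP, for which number 1 was not the highest in both groups. The median SD of the sterol synthesis genes between DMSO libraries was then 0.739 (OA set) and 0.692 (TN set), against 0.21 and 0.23 for all. Fatty acid oxidation then stood at 0.129 and 0.193 and was no longer the lowest list in either set. The same step lowered the median SD of fatty acid synthesis to 0.321 and 0.345 and that of the regulators from 0.682 and 0.483 to 0.458 and 0.346. In the OA set, whose numbers were not taken as pairs, it lowered the count of members with a called replicate term from 20 to 7 of 34, against 12.6% and 0.109% of all genes.

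**Figure D3:**
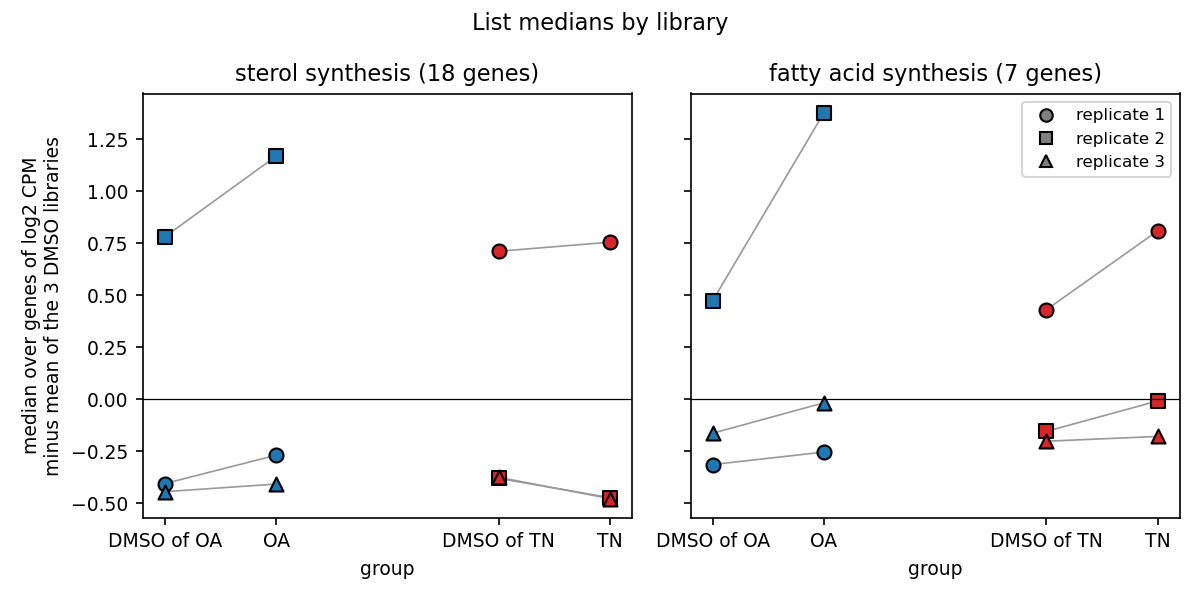
Each point is 1 library and gives the median over the genes of a list of log2 CPM minus the mean of the 3 DMSO libraries (left, 18 sterol synthesis genes, and right, 7 fatty acid synthesis genes), with lines joining libraries of the same replicate number. Replicate 2 of the OA set and replicate 1 of the TN set lie above the others with DMSO and with stressor alike.

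The first comparison asked how the members differed between OA and DMSO. None of the 34 members passed the test (0 of 34, edgeR's quasi-likelihood test, Benjamini-Hochberg adjusted over all genes), against 4.48% of 14681 genes tested. By DESeq2, 0 of 34 were called, against 13.1% of all. At an unadjusted p below 0.05 there were 4, SREBF1, SREBF2, FADS1, and FADS2, all with higher means in OA (11.8%, against 23.3% of all genes). The members' medians leaned upward, with a median log2 fold change of 0.41 over the 34, against −0.02 over all tested genes. Because the spread between replicates was wide, the standard errors of the sterol genes were wide as well: 0.71 for FDFT1 and 0.79 for INSIG1.

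Among the regulators, SREBF1 was at 29.8, 75.4, and 36.5 CPM in DMSO 1, 2, and 3 and at 78.8, 114, and 74.5 CPM in OA 1, 2, and 3. SREBF2 was at 30.4, 69.2, and 34.9 CPM in DMSO and at 58.7, 130, and 83.1 CPM in OA. For both, each OA library stood above the DMSO library of its number, yet the groups overlapped because DMSO 2 was high. The log2 fold change was 0.91 ± 0.38 (SE) for SREBF1 (adjusted p = 0.203) and 1.01 ± 0.41 for SREBF2 (adjusted p = 0.188). SCAP, INSIG1, and INSIG2 gave log2 fold changes of 0.39 ± 0.31, 0.57 ± 0.79, and 0.78 ± 0.44, and none passed the test.

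Of the sterol synthesis genes, 12 of 18 had a higher mean and 6 a lower one, and 0 were called. ACAT2, the thiolase that makes the first intermediate, was at 77.7, 177, and 76.0 CPM with DMSO and at 28.5, 226, and 39.0 CPM with OA. It was thus lower in OA 1 and 3 and higher in OA 2 than in any DMSO library. HMGCS1, the synthase of the next step, was at 39.9, 109, and 35.4 CPM with DMSO and at 52.9, 210, and 35.1 CPM with OA. IDI1, the isomerase that supplies dimethylallyl units, was at 40.0, 50.9, and 25.9 CPM with DMSO and at 33.9, 31.3, and 15.7 CPM with OA, for a log2 fold change of −0.53 ± 0.37. LSS, which closes the sterol rings, was at 44.95, 132, and 59.4 CPM with DMSO and at 25.4, 86.7, and 42.5 CPM with OA, lower within each number, for a log2 fold change of −0.62 ± 0.53. DHCR7, the reductase that ends one branch of the pathway, was at 40.2, 158, and 48.2 CPM with DMSO and at 51.6, 305, and 90.6 CPM with OA, for a log2 fold change of 0.86 ± 0.73. For each of these 5 genes the groups overlapped.

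In fatty acid synthesis, the desaturases of polyunsaturated fatty acids stood highest. FADS1 was at 51.9, 95.0, and 55.3 CPM with DMSO and at 88.4, 278, and 106 CPM with OA, for a log2 fold change of 1.22 ± 0.47 (adjusted p = 0.168). FADS2, its neighbour on chromosome 11, was at 9.32, 16.2, and 10.4 CPM with DMSO and at 10.97, 49.0, and 23.7 CPM with OA, for a log2 fold change of 1.22 ± 0.52 (adjusted p = 0.206). OA 1 lay within the DMSO range for both genes. ELOVL6 was at 33.1, 19.8, and 24.8 CPM with OA, below all 3 DMSO libraries, for a log2 fold change of −0.62 ± 0.27 (adjusted p = 0.217). FASN, the fatty acid synthase, was at 72.3, 205, and 105 CPM with DMSO and at 97.2, 301, and 115 CPM with OA, and SCD at 252, 1359, and 332 CPM with OA. Both groups overlapped with DMSO. ACACA, which makes malonyl-CoA, gave a log2 fold change of 0.08 ± 0.30.

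Across the members, OA and DMSO libraries did not overlap for 3 genes that were higher with OA, PMVK, TM7SF2, and ABCG1 (8.82% of members, against 16.3% of all tested genes), and for 1 that was lower, ELOVL6 (2.94%, against 15.5%). Both shares were below those of all genes. PMVK was at 13.0, 15.8, and 12.5 CPM with OA, against at most 12.3 CPM with DMSO. TM7SF2, a sterol reductase, was at 26.0, 34.1, and 29.5 CPM with DMSO and at 36.4, 45.3, and 47.4 CPM with OA. ABCG1, a sterol exporter, was at 1.41, 1.26, and 1.02 CPM with DMSO and at 2.65, 2.19, and 1.86 CPM with OA, from 18 to 36 counts.

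Leaving out both libraries of number 2, which stood apart, gave 4 calls among 34 members (11.8%), against 5.36% of all genes. SREBF1, SREBF2, and INSIG1 were then higher with OA, with log2 fold changes of 1.23 ± 0.23, 1.13 ± 0.24, and 1.16 ± 0.23 and adjusted p of 0.0352, 0.0497, and 0.0413 by edgeR's quasi-likelihood test. ACAT2 was lower, at −1.17 ± 0.22 (adjusted p = 0.0379). Without both libraries of number 1, 0 of 34 members and 52 genes in all were called, and without number 3, 0 members and 0 genes. At an unadjusted p below 0.05 these fits had 3080 and 1472 genes. These comparisons have 2 libraries a group and were chosen after the libraries had been seen.

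The second comparison asked the same for TN. Again 0 of 34 members passed the test without a replicate term (edgeR's quasi-likelihood test), against 6.99% of 14432 genes tested. At an unadjusted p below 0.05 there were 3, IDI1, STARD4, and FADS2 (8.82%, against 24.3% of all genes). By DESeq2, 2 of 34 were called, IDI1 and STARD4 (5.88%, against 15.0% of all genes). The median log2 fold change of the 34 members was 0.10, against −0.03 over all genes. TN and DMSO libraries did not overlap for 2 members that were higher, STARD4 and FADS2 (5.88%, against 15.9% of all), and for 1 that was lower, IDI1 (2.94%, against 16.8%).

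With the replicate number as a block, 9 of 34 members were called (26.5%), against 27.1% of all genes, so that the members were called about as often as any gene. Of them, 5 were higher with TN, SREBF1, HSD17B7, STARD4, FADS2, and ABCA1 (14.7%, against 11.8% of all), and 4 were lower, ACAT2, IDI1, FDPS, and EBP (11.8%, against 15.3%). Without number 1, whose libraries stood apart, the blocked fit called 20 of 34 (58.8%), 11 higher and 9 lower, against 41.3% of all genes. The libraries left in each group were close to each other. Their chi-square statistic per gene was 7.34 (DMSO) and 6.25 (TN), against 71 to 111 for pairs with number 1. The p-values of that fit measure only this small spread. Without number 2 it called 2 of 34, ACAT2 and IDI1 (5.88%, against 12.8%), and without number 3 it called 7 (20.6%, against 16.8%). ACAT2 and IDI1 were called whichever number was left out, and the other 7 lost their call without at least 1 of them.

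All 4 members called lower were sterol synthesis genes. ACAT2 was at 181, 73.1, and 77.9 CPM in DMSO 1, 2, and 3 and at 94.7, 19.6, and 20.05 CPM in TN 1, 2, and 3. It was lower within each number, while TN 1 lay above DMSO 2 and 3. Its log2 fold change was −1.31 ± 0.68 without the block (adjusted p = 0.294) and −1.58 ± 0.23 with it (adjusted p = 0.00205). ACAT2, at chr6:159762045-159779112 in hg38, shares 22.2% of its exon bases with genes on the opposite strand, among them TCP1, a chaperonin subunit. TCP1 had a log2 fold change of −1.18 ± 0.12 in the blocked fit (adjusted p = 0.000532), and since the strand setting of the counts is not stated, its part in the ACAT2 counts was not tested.

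IDI1, at chr10:1039152-1049119, was at 76.3, 64.5, and 72.2 CPM with DMSO and at 28.7, 46.3, and 42.1 CPM with TN. All 3 TN libraries lay below all 3 DMSO libraries, and TN 1, a library high for most of the pathway, was the lowest here. The log2 fold change was −0.86 ± 0.24 without the block (adjusted p = 0.0729) and −0.88 ± 0.20 with it (adjusted p = 0.0141). FDPS, which makes farnesyl diphosphate, was at 441, 193, and 197 CPM with DMSO and at 345, 115, and 109 CPM with TN, and its blocked log2 fold change was −0.65 ± 0.15 (adjusted p = 0.0161). EBP, an isomerase late in the pathway, was at 62.5, 26.9, and 26.4 CPM with DMSO and at 37.0, 13.4, and 15.6 CPM with TN, and its blocked value was −0.84 ± 0.16 (adjusted p = 0.00706). Both fell within each number and overlapped between the groups.

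HSD17B7, a sterol ketoreductase, was the sterol synthesis gene that was called higher in the blocked fit. It was at 46.8, 25.4, and 26.2 CPM with DMSO and at 87.2, 33.3, and 37.3 CPM with TN, for 0.60 ± 0.17 (adjusted p = 0.03). A stretch of 23.7% of its longest transcript is at least 98% identical to the pseudogenes HSD17B7P2 and PLD5P1, so its counts are less certain. Scaled by total counts, its blocked adjusted p was 0.0658. CYP51A1 and EBP share 68.2% and 36.4% of their exon bases with other genes on the same strand, and HMGCS1, FDPS, and IDI1 share 37.7%, 18.6%, and 15.0% with genes on the opposite strand, so their counts may carry a like doubt. These overlaps are those of Gencode release 44, which is later than the version the study counted with. Whether the overlapping genes were in that version was not checked. The remaining sterol synthesis genes were not called with the block. HMGCS1 was at 129, 64.5, and 68.4 CPM with DMSO and at 97.9, 59.98, and 61.4 CPM with TN, and SQLE, the squalene epoxidase, had a blocked log2 fold change of −0.11 ± 0.15. Of the 18, 9 had a higher and 9 a lower mean without the block.

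STARD4, which carries cholesterol between membranes and is an SREBP target, was at 25.9, 38.1, and 41.3 CPM with DMSO and at 44.7, 96.0, and 73.7 CPM with TN. All TN libraries lay above all DMSO libraries, and replicate 1 was the lowest in both groups. Its log2 fold change was 1.03 ± 0.33 without the block (adjusted p = 0.107) and 0.99 ± 0.17 with it (adjusted p = 0.00465). In the OA set STARD4 was at 16.9, 15.1, and 8.93 CPM with DMSO and at 24.4, 25.9, and 15.1 CPM with OA, for 0.68 ± 0.34 (adjusted p = 0.279).

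FADS2 was at 9.84, 7.55, and 7.33 CPM with DMSO and at 26.8, 12.1, and 11.8 CPM with TN, for 0.95 ± 0.23 with the block (adjusted p = 0.018). The groups did not overlap. FADS1 was at 109, 62.7, and 67.1 CPM with DMSO and at 182, 84.5, and 78.2 CPM with TN, for 0.46 ± 0.16 with the block (adjusted p = 0.0634). FASN was at 191, 83.8, and 75.3 CPM with DMSO and at 187, 49.8, and 43.3 CPM with TN, so that TN 1 stayed near its control and TN 2 and 3 lay below theirs (blocked adjusted p = 0.0732). SCD, at 895, 272, and 225 CPM with TN, and ACACA and ELOVL6 were not called.

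Among the regulators, SREBF1 was at 70.6, 43.2, and 35.6 CPM with DMSO and at 111, 55.5, and 48.7 CPM with TN, for 0.49 ± 0.15 with the block (adjusted p = 0.0433, but 0.121 when scaled by total counts and 0.0981 with no filter). SREBF2 was at 61.0, 33.6, and 34.7 CPM with DMSO and at 107, 46.6, and 36.8 CPM with TN (blocked adjusted p = 0.091). INSIG2 was at 4.97, 8.01, and 8.07 CPM with DMSO and at 6.83, 11.3, and 14.7 CPM with TN (blocked adjusted p = 0.0717). INSIG1 was lower within each number, slightly so in number 1, with a blocked log2 fold change of −0.46 ± 0.18 (adjusted p = 0.0971). ABCA1 was at 2.63, 6.26, and 5.48 CPM with TN, above the DMSO library of its number in each case, for 1.37 ± 0.38 with the block (adjusted p = 0.0321), from 10 to 68 counts a library. ABCG1 and MYLIP were not called.

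**Figure D4:**
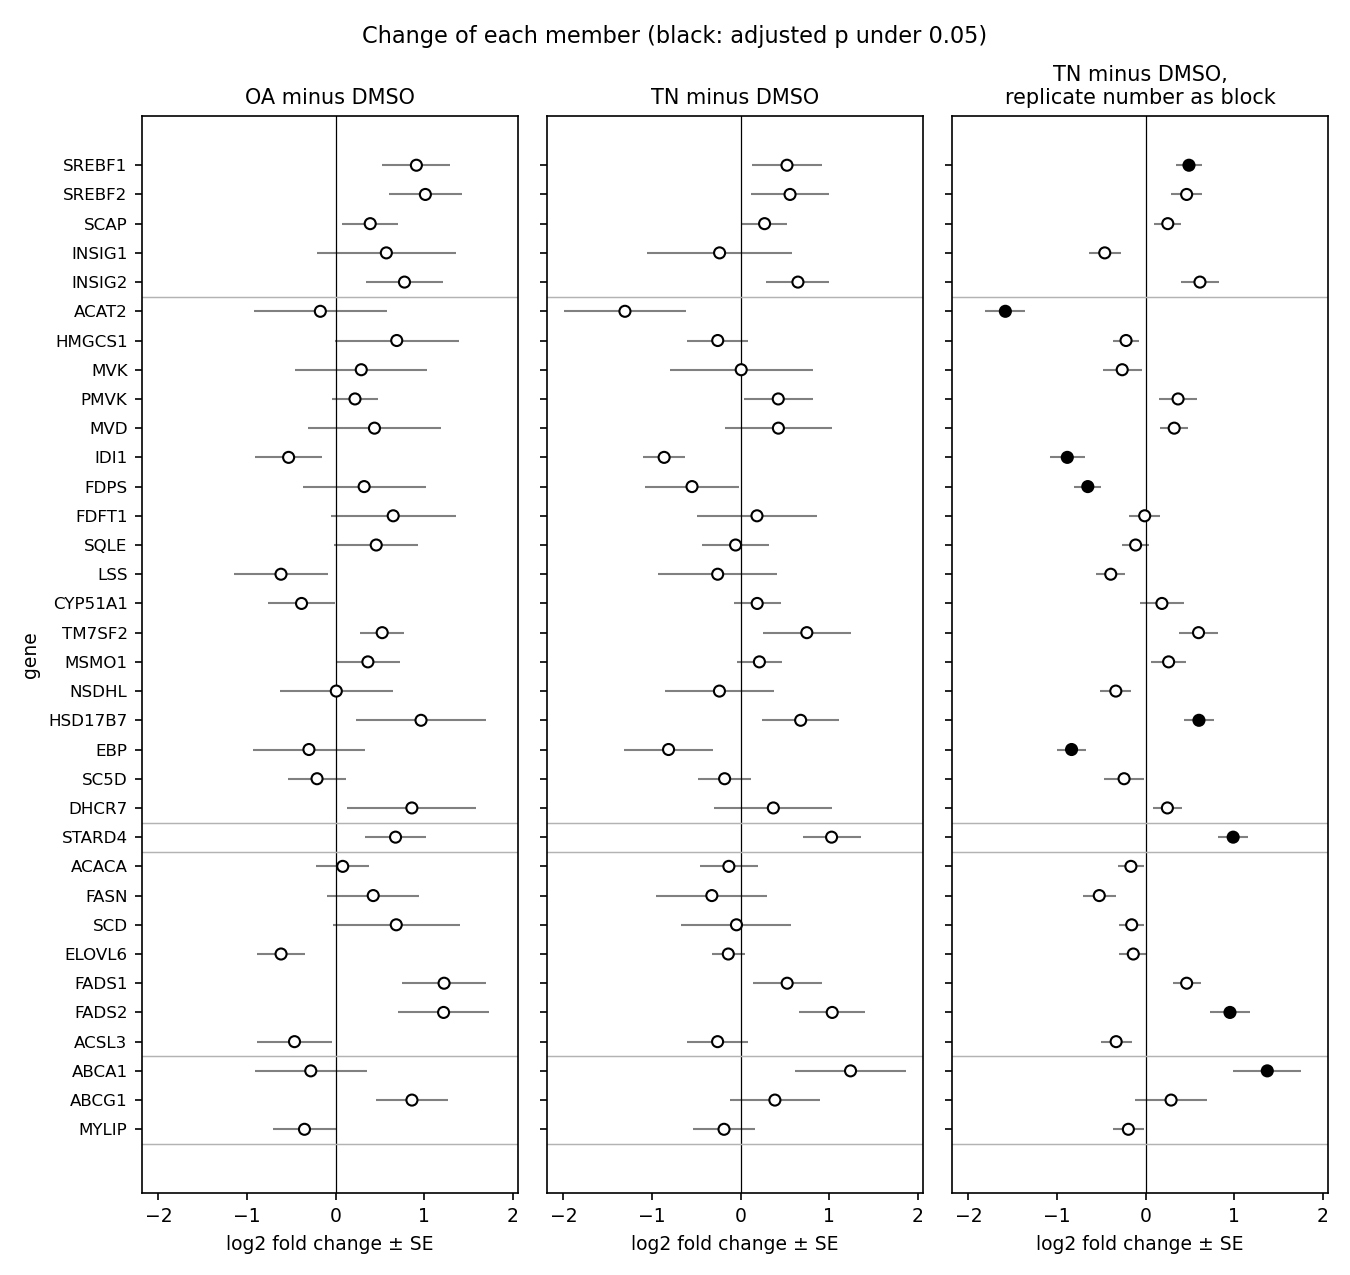
Points give the log2 fold change of each of the 34 members with its SE as a bar, for OA (left), TN (middle), and TN with the replicate number as a block (right), and black points have an adjusted p below 0.05 by edgeR's quasi-likelihood test. No point is black on the left or in the middle, and 9 are black on the right, where the bars are shorter.

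**Figure D5:**
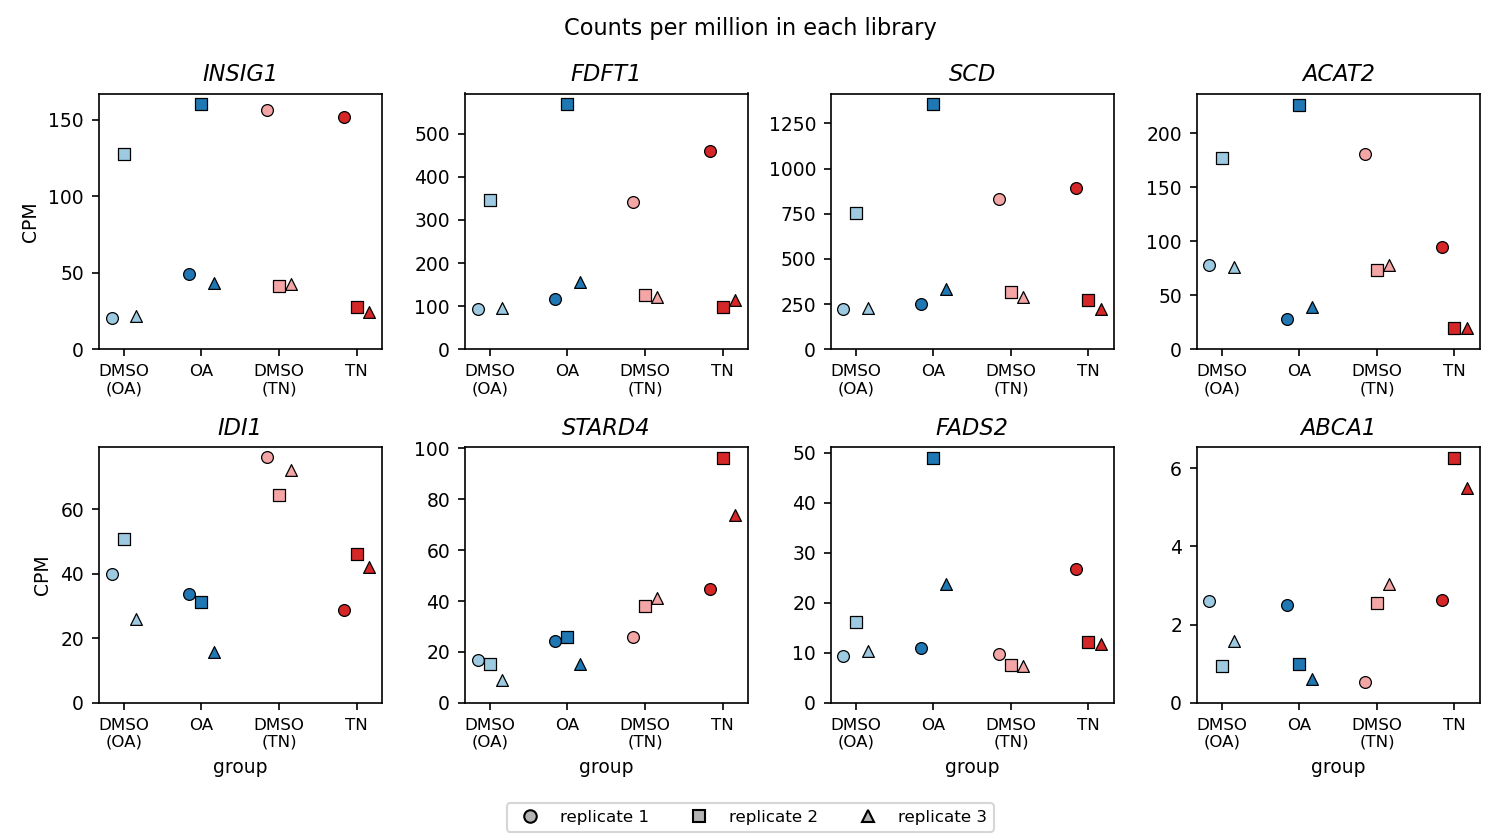
Each point is the CPM of a gene in 1 library, with the replicate number given by the marker, in the 4 groups (horizontal axis). INSIG1, FDFT1, and SCD separate by replicate number, and IDI1, STARD4, and FADS2 separate TN from its DMSO. ACAT2 separates by replicate number and is lower with TN within each number, but its TN and DMSO groups overlap.

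The sterol and the fatty acid genes were then set against each other. With OA, the median log2 fold change was 0.31 for sterol synthesis (range −0.62 to 0.96) and 0.42 for fatty acid synthesis (range −0.62 to 1.22), and the difference of the medians was −0.12. With TN, the medians were −0.03 (range −1.31 to 0.75) and −0.13 (range −0.32 to 1.03), and the difference was 0.11. The median of all tested genes was −0.02 and −0.03, so that the OA medians lay above it. No test is attached to these medians. They rested on the libraries that stood apart: without OA 2 the OA medians were −0.46 and −0.17, and without DMSO 2 they were 0.75 and 0.98. Without TN 1 the sterol median was −0.55 and the difference between the lists −0.50, and without DMSO 1 the sterol median was 0.40. Within replicate numbers 1, 2, and 3, the median gene differed between OA and DMSO by 0.01, 0.41, and 0.07 for sterol synthesis and by 0.17, 0.56, and 0.22 for fatty acid synthesis. Within the numbers of the TN set, it differed by 0.03, −0.18, and −0.13 for sterol synthesis and by 0.02, −0.12, and −0.16 for fatty acid synthesis. The fatty acid median was thus above the sterol median in all 3 numbers of the OA set, though these numbers were not taken as pairs, and the order of the lists was not the same in all numbers of the TN set.

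The stressors were compared as the OA change minus the TN change. No member was called (0 of 34), and neither was any of 15429 genes tested (0%), by edgeR's quasi-likelihood test. At an unadjusted p below 0.05 there were 0 members and 348 genes (2.26%), and DESeq2 called 0 members and 2 genes. With the replicate number as a block, 0 members were called as well, while 7 of 34 (20.6%), INSIG1, FDFT1, SQLE, FASN, SCD, FADS1, and ABCA1, had an unadjusted p below 0.05, against 804 genes (5.21%). This block includes the OA numbers, which were not taken as pairs. Of the 34 members, 16 had a higher mean with both stressors, 8 a lower mean with both, 8 were higher with OA and lower with TN, and 2 were lower with OA and higher with TN. The largest differences were −1.59 for ABCA1, 1.06 for ACAT2, 0.84 for HMGCS1, and 0.79 for FDPS, all with adjusted p near 1. INSIG1 differed by 0.77, and by 1.25 ± 0.32 with the block (adjusted p = 0.921). The 2 sets had separate DMSO libraries, and these already differed in the members: STARD4 was at 8.93 to 16.9 CPM in the DMSO libraries of OA and at 25.9 to 41.3 CPM in those of TN, which were scaled separately.

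Other genes of sterol and lipid metabolism were taken from 4 lists, and up to 3 genes of each are named. In the list of SREBP processing and sterol handling, 1 of 15 genes was called with OA, TMEM97, a sterol-binding protein that is an SREBP target. It was at 73.9, 142, and 89.8 CPM with DMSO and at 26.9, 42.8, and 40.8 CPM with OA, without overlap, and fell by 1.47 ± 0.33 on the log2 scale (adjusted p = 0.0467 by edgeR's quasi-likelihood test). With TN it was at 159, 84.7, and 85.3 CPM in DMSO and at 64.5, 26.3, and 33.4 CPM in TN, also without overlap, with a log2 fold change of −1.41 ± 0.41 (adjusted p = 0.0854, and 0.000657 with the block). ERLIN1, which takes part in INSIG1 and SREBP turnover in the ER, was the gene of this list called with TN, at −0.91 ± 0.20 (adjusted p = 0.0379). OSBP was not called with either stressor.

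In the list of other fatty acid and lipid synthesis genes, 0 of 20 were called with OA and 2 with TN by edgeR's quasi-likelihood test. ME1, which supplies NADPH, rose by 0.82 ± 0.19 (adjusted p = 0.0431), and HACD3, an elongation enzyme, fell by 0.93 ± 0.21 (adjusted p = 0.0447). GPAM, which starts glycerolipid synthesis, had −1.08 ± 0.31 (adjusted p = 0.0775, and 0.00854 with the block). In the isoprenoid branch, which uses FDPS products, 0 of 11 were called with OA and 1 with TN, PDSS1 of ubiquinone synthesis, at −1.15 ± 0.22 (adjusted p = 0.024). It was at 21.3 to 26.6 CPM with DMSO and at 9.94 to 11.5 CPM with TN. In fatty acid oxidation, 0 of 14 were called with OA and 1 with TN, ACADVL, at 0.85 ± 0.19 (adjusted p = 0.0424). These counts, 1 of 60 genes with OA and 5 of 60 with TN, compare with 4.48% and 6.99% of all genes. With the block, 20 of 60 were called with TN, 10 higher and 10 lower, against 27.1% of all genes. They were 5 of 15 in SREBP processing and sterol handling, 9 of 20 in other lipid synthesis, 2 of 11 in the isoprenoid branch, and 4 of 14 in fatty acid oxidation.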

How the data were processed

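Total RNA of HCT116 cells was sequenced from 12 libraries. The study itself calls the method mRNA-seq. The authors aligned reads to hg38 with STAR, counted them per gene with a Gencode annotation, and deposited raw counts, whose strand setting is not given in the sources used here. Their deposited tables of DESeq2 results (fold changes and p-values) were not used. Groups came from the sample titles. Counts were scaled by TMM, filtered by filterByExpr, and, after a check on simulated data, compared separately for OA and TN by edgeR's two-sided quasi-likelihood test (edgeR 4.0.16, R 4.3.3). The p-values were adjusted over every gene tested (Benjamini-Hochberg), and those below 0.05 were called. The difference between stressors was a contrast over 12 libraries. CPM are TMM-scaled, and log2 CPM used a prior count of 2. All 34 members passed the filter in both fits. Every member may be named, and of each other list up to 3 genes with the lowest p. The members and lists were chosen with earlier results of these data known. Libraries with the same number were taken as paired where each pair's deviations correlated above 0.1. In the TN set they did (0.639, 0.409, and 0.427), and the blocked values are given, although TN 2 correlated with DMSO 3 (0.436) and TN 3 with DMSO 2 (0.378) about as well, so that numbers 2 and 3 were not told apart. DESeq2 1.42.0, other scalings, filters, and left-out libraries were alternatives, and those with GC content, blocked alternatives, and left-out numbers were added after the data were seen. Positions and overlaps came from Gencode release 44 on hg38. Libraries of a group differed by a chi-square statistic of at least 6.25 per gene, so none was the same library counted again. The lowest values, 6.25 (TN 2 and 3) and 7.34 (DMSO 2 and 3 of the TN set), do not tell whether these came from separate cultures. With 3 replicates a group, precision was limited by their spread and, for ABCA1 and ABCG1, by counting error.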

Additional observations from a re-analysis of the deposited data

Results flagged for a closer look

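INSIG1 was 1 of 10 members with opposite directions under the stressors, and it was singled out because, on the log2 CPM scale, the 3 OA libraries all exceeded the average of their 3 DMSO libraries and every TN library lay below the DMSO library of its number. These are different yardsticks: against the average of its 3 DMSO libraries (7.29, 5.37, and 5.42), TN 1 was higher, at 7.25, while each OA library was also above the DMSO library of its number. In CPM, OA 1 and OA 3, at 49.0 and 43.7, lay below the DMSO mean of 56.6, which DMSO 2 raised. The OA change minus the TN change was 0.77 on the log2 scale, and the contrast gave an unadjusted p of 0.555 and an adjusted p near 1 by edgeR's quasi-likelihood test. The rule by which the libraries moved apart is itself untested. With the replicate number as a block, the difference was 1.25 ± 0.32 (SE), with an unadjusted p of 0.00353 and an adjusted p of 0.921 by edgeR's quasi-likelihood test. With the block and no filter on low counts, INSIG1 was called, as were 0.227% of 31222 genes. Groups of 3 libraries were too small for an outlier test.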

How the results depend on the processing

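For OA, the count of 0 of 34 members called was 1 with no filter (FADS1, 5.52% of all genes called), 1 with GC offsets (16.3%), 10 with the replicate block (26.7%), 13 with GC offsets and the replicate block (25.9%), 4 without both libraries of number 2 (5.36%), 0 without those of number 1 or 3, and 0 to 1 when single libraries were left out. For TN, the count of 0 was 2 with DESeq2 (15.0%), 2 with no filter (5.85%), 4 with GC offsets (22.0%), 9 with the replicate block (27.1%), 16 with GC offsets and the replicate block (37.6%), 20 without both libraries of number 1 (42.8%), 0 without those of number 2 or 3 (0 of all genes by edgeR, with 1611 and 1603 at an unadjusted p below 0.05), and 0 to 3 when single libraries were left out. The blocked TN count of 9 was 16 with GC offsets and 2 to 20 when a number was left out. The difference between the sterol and the fatty acid median with TN, 0.11, ranged from −0.50 to 0.21 when single libraries were left out. MVK with TN, 0.01 and not called, was called at −0.48 without both libraries of number 1. The cause was not tested. For OA minus TN, 1 member, INSIG1, was called with the replicate block and no filter, and 0 under the other alternatives run for that contrast, which did not include leaving out both libraries of a number. In the OA set, same-numbered libraries correlated by 0.625, 0.539, and 0.0908, so that they share only a number by the rule used, and DMSO 3 correlated best with OA 1 (0.153). The OA block moved the calls over all genes from 658 to 3914, and its 10 members were SREBF1, SREBF2, INSIG1, FDFT1, DHCR7, STARD4, FADS1, and FADS2 (higher) and LSS and ELOVL6 (lower). Its replicate term was called for 20 of 34 members, against 12.6% of all genes, and with GC offsets for 7 of 34, against 0.109%. The blocked OA count of 10 was 3 when scaled by total counts (18.3% of all genes). Without number 1, 2, or 3 it was 4, 13, and 3 (17.2%, 25.5%, and 17.5% of all genes), and ELOVL6 was called in none of these. Scaling by total counts moved the median of all genes from −0.02 to −0.23 (OA) and from −0.03 to −0.18 (TN), and the sterol median from 0.31 to −0.03 (OA) and from −0.03 to −0.26 (TN).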
